A study of Homo sapiens with 6 samples.

Results

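The nuclear-encoded genes of the mitochondrial respiratory chain were followed in C4-2B prostate cancer cells treated with SR2211, XY011 or enzalutamide (ENZ). They were chosen by name alone, as the genes whose symbol starts with any of 16 prefixes (NDUFA, NDUFB, NDUFC, NDUFS, NDUFV, SDHA, SDHB, SDHC, SDHD, UQCR, COX4, COX5, COX6, COX7, COX8 and ATP5), with pseudogenes and antisense genes left out. This gave 95 genes, of which 82 encode structural subunits, 9 encode assembly factors (NDUFAF1 to NDUFAF7, SDHAF1 and SDHAF2) and 4 are readthrough or accessory genes (ATP5S, ATP5SL, ATP5J2-PTCD1 and NDUFC2-KCTD14). The SR2211 experiment held 93 of them among 17602 listed genes, the XY011 experiment 92 among 16293 and the ENZ experiment 92 among 22642, and 90 were listed in all 3.

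The series held 6 RNA-seq libraries in 3 experiments, with 1 vehicle and 1 treated library in each, so no group had a replicate. C4-2B is an established human line derived from LNCaP cells as a model of prostate cancer that spreads to bone, and all 6 libraries came from this line grown in RPMI with mostly charcoal-stripped serum, which is low in steroid hormones. SR2211, an inverse agonist of a nuclear receptor, was given at 5 µM for 48 h, XY011, a compound known by its code name, at 5 µM for 48 h, and enzalutamide, an anti-androgen, at 20 µM for 48 h. Each treated library was compared with the vehicle library of its own experiment, and no vehicle library was shared between experiments.

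The respiratory chain passes electrons from NADH (complex I) and succinate (complex II) through complex III to complex IV, which reduces oxygen, and the protons pumped on the way drive ATP synthase (complex V). Nearly all of its subunits are made from nuclear genes and imported, while a small core set is encoded by mitochondrial DNA. Prostate epithelium is known for a low use of the citric acid cycle that is regained in prostate cancer.

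Values were RPKM in the SR2211 experiment and FPKM in the other experiments, both of which scale reads by gene length and library size. A change is log2((treated + 1)/(vehicle + 1)), which understates the change of genes with low values. A gene was compared where either library reached a value of 1, and it was called higher or lower at a change of 1 or more in size, a size rule with no p-value. In all, 89 of the 95 genes were compared with SR2211, 91 with XY011 and 91 with ENZ. UQCRHL, COX6B2, ATP5L2 and ATP5J2-PTCD1 stayed below 1 in the SR2211 experiment, NDUFA4L2 in the XY011 experiment and COX7A1 in the ENZ experiment. UQCRHL, COX6B2 and NDUFA4 of the ENZ table, UQCRHL and COX7A1 of the XY011 table, COX7A1 of the SR2211 table and NDUFC2-KCTD14 of both the SR2211 and XY011 tables were not analysed here. In bulk RNA, fewer cells of a type and less RNA per cell cannot be told apart.

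The depth could be read from the SR2211 experiment alone, where the values of the shortest genes gave 8200243 mapped reads in the vehicle library and 8163382 with SR2211, and it is unknown for the other 4 libraries. The 7 luminal prostate markers were all listed in each vehicle library, with summed values of 2681 RPKM (SR2211 experiment), 2627 FPKM (XY011 experiment) and 4311 FPKM (ENZ experiment), so the labelled cell type matched its markers. Their sum was 835 RPKM with SR2211, 970 FPKM with XY011 and 2371 FPKM with ENZ, and its part in the results below was not tested. Basal, leukocyte and endothelial markers summed to at most 13.3 in every library, and the fibroblast markers to 28.1 and 44.6 FPKM in the ENZ experiment (COL1A1 14.1 and 34.8, COL1A2 5.09 and 5.43, DCN 8.94 and 4.34) and to at most 5.62 in the other experiments.

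Sequences are given for the genes on which the results turn. Among them are the c subunit gene pair ATP5G1 and ATP5G2 of ATP synthase, with changes of opposite sign. COX7A2L had the highest change with SR2211 and XY011. NDUFB3 is a complex I gene with a lower value in every treated library, as were several others, such as NDUFB6 and NDUFA8. RefSeq (GRCh38.p14) gave 3 start windows for ATP5G2, 2 for COX7A2L and 1 each for ATP5G1 and NDUFB3. The 250 bases upstream of the first listed start of each gene are printed. They lie at chr17:48892537-48892786 on the plus strand for ATP5G1 (now ATP5MC1), at chr12:53676084-53676333 on the minus strand for ATP5G2 (now ATP5MC2), at chr2:42361218-42361467 on the minus strand for COX7A2L and at chr2:201071751-201072000 on the plus strand for NDUFB3. Capitals mark the CCAAT box, the cyclic AMP response element TGACGTCA and the NRF1 core GCATGCGC, the middle of the site bound by the transcription factor NRF1. Each was searched on both strands, where the CCAAT box reads ATTGG and the NRF1 core GCGCATGC.
ATP5G1: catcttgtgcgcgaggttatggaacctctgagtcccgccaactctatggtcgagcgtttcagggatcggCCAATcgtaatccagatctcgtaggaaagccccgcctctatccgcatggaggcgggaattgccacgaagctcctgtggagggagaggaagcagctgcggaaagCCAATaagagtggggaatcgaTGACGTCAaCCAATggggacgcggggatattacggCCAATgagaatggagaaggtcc
ATP5G2: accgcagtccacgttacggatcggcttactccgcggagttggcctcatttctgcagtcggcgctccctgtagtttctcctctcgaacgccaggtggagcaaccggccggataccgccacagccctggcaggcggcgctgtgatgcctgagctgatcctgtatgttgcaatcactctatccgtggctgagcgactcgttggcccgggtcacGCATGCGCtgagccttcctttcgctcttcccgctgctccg
COX7A2L: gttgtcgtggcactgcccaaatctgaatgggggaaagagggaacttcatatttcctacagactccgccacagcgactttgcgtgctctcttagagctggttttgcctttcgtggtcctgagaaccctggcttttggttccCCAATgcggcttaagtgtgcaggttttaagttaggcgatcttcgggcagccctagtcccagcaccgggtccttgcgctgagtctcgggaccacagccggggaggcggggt
NDUFB3: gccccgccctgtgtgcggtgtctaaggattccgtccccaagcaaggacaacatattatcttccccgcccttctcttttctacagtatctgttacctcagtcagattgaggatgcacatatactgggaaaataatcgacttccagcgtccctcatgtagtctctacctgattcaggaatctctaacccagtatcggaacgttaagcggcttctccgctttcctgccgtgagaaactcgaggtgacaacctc
The printed ATP5G1 window held 4 CCAAT boxes and 1 cyclic AMP response element, and the printed ATP5G2 window 1 NRF1 core. The printed COX7A2L window held 1 CCAAT box and the NDUFB3 window none of these letters. The other start windows of ATP5G2 and COX7A2L are not described singly. Of 35116 windows of the same length, 0.874% held 4 or more CCAAT boxes, a cutoff taken from the count in ATP5G1. Of the 76 respiratory chain genes matched to a window, 3 had 4 or more in at least 1 of their windows, ATP5G1 among them. This count is by gene and the share is by window, so they are not in the same unit. RefSeq windows were matched for 76 of the 95 genes (93 start windows). The NRF1 core was in 16.1% of their windows and in 2.63% of all windows, the ETS letters CCGGAAG in 21.5% and 8.52%, TGACGTCA in 4.30% and 1.65%, the YY1 letters AAGATGGC in 2.15% and 1.36%, AGGTCA in 15.1% and 12.1%, and the CCAAT box in 30.1% and 32.0%. A match is a description of the window and not a mapped site, and the motifs were counted without regard to overlap with each other.

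No respiratory chain gene was called higher or lower with SR2211 (0 of 89). Of all 12151 genes compared, 5.1% were called higher and 5.75% lower. XY011 gave 1 higher gene, COX7A2L, and 5 lower genes, ATP5G1, COX7B2, NDUFB6, NDUFB3 and ATP5L2, among 91, against 7.59% higher and 13.2% lower among 12616 genes. ENZ gave 0 higher and 1 lower gene, the readthrough NDUFC2-KCTD14, among 91, against 3.68% higher and 4.66% lower among 19253 genes. The shares of respiratory chain genes called were thus below those of all genes in each direction and experiment. With SR2211 the closest to the threshold were COX7A2L at a change of 0.83 and ATP5G1 at -0.89. With XY011 the genes just inside were COX7A2L at 1.10 and ATP5L2 at -1.01, and those just outside were NDUFS4 at 0.67 and NDUFA8 at -0.90. With ENZ they were NDUFC2-KCTD14 at -1.79 inside, and ATP5L2 at 0.89 and NDUFB5 at -0.78 outside.

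The changes were small and more often below 0 than above. With SR2211, 62 of 89 genes had a lower value than in vehicle, with a median change of -0.15, where 54.4% of all genes compared were lower and the median was -0.07. With XY011, 74 of 91 were lower with a median of -0.25, where 57.7% of all genes were lower and the median was -0.14. With ENZ, 54 of 91 were lower with a median of -0.07, where 52.3% of all genes were lower and the median was -0.02. Most of these genes are abundant, and 77, 77 and 82 of them reached a value of 20 in their experiments. Of all genes at that level, 59.9% were lower with SR2211, 57.8% with XY011 and 55.7% with ENZ. The median of all genes at that level was -0.16 with SR2211, -0.16 with XY011 and -0.05 with ENZ, so the median of the respiratory chain genes lay near that of abundant genes with SR2211 and ENZ and below it with XY011. At that level 0 of 77 were called with SR2211 (5.74% higher and 8.15% lower among all such genes), 1 higher and 3 lower of 77 with XY011 (9.23% and 14.3%) and 0 of 82 with ENZ (2.32% and 3.07%). At a smaller size rule of 0.58, about 1.5 times, 1 respiratory chain gene was higher and 4 were lower with SR2211 (14% and 17.5% of all genes). With XY011 it was 2 and 17 (17.1% and 28.1%), and with ENZ 2 and 2 (11.8% and 12.6%). Together they made up 2.53% of the summed RPKM of all genes in the SR2211 vehicle library and 2.26% with SR2211. The shares were 2.60% and 2.16% of the summed FPKM in the XY011 experiment, and 2.40% and 2.30% in the ENZ experiment.

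**Figure D1:**
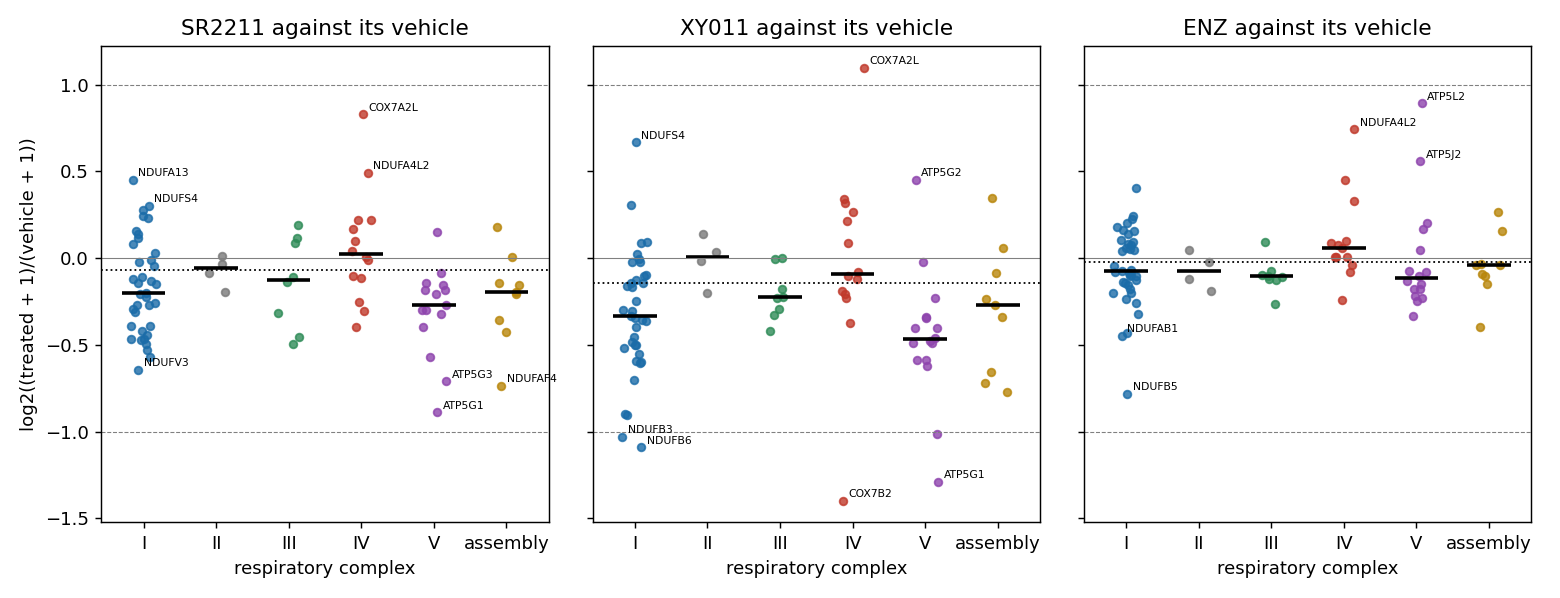
Change of each gene, log2((treated + 1)/(vehicle + 1)), by complex in the 3 experiments (1 vehicle and 1 treated library each); bars are medians, the dotted line is the median of all genes compared and dashed lines mark changes of 1 and -1. The ATP synthase genes lie lowest with SR2211 and XY011 (medians -0.27 and -0.47), complex IV lies near 0, and with ENZ all medians lie between -0.12 and 0.06; the 4 readthrough or accessory genes are not drawn.

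Complex V, the ATP synthase, had the lowest median of the 5 complexes with both SR2211 (-0.27) and XY011 (-0.47). Of its genes, 14 of 15 compared with SR2211 and 15 of 16 compared with XY011 had lower values than vehicle. Among all genes compared, 54.4% and 57.7% were lower. The same 14 complex V genes were lower in both experiments (45.8% of all genes), and ATP5G2 alone was higher in both (33.6%). The summed value of complex V with SR2211 was 0.836 times that in vehicle, with XY011 0.755 times and with ENZ 0.988 times. Its median stayed below 0 when each pair was centred on its median gene (-0.19 with SR2211, -0.30 with XY011) and under quantile scaling (-0.17 and -0.37). With ENZ 11 of its 16 genes were lower (52.3% of all genes), and the median was -0.12.

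The c subunit, which forms the proton-driven rotor ring of ATP synthase, is encoded by 3 genes, ATP5G1 (Entrez 516), ATP5G2 (517) and ATP5G3 (518), whose mature proteins are the same. ATP5G1 was at 160 RPKM in vehicle and 85.9 with SR2211, at 255 FPKM in vehicle and 104 with XY011, and at 400 FPKM in vehicle and 340 with ENZ. It was lower in all 3 treated libraries, with changes of -0.89, -1.29 and -0.23. ATP5G2 was at 157 RPKM in vehicle and 174 with SR2211, at 243 and 334 FPKM in the XY011 experiment, and at 317 and 356 FPKM in the ENZ experiment. It was higher in all 3 treated libraries, with changes of 0.15, 0.45 and 0.17. ATP5G3 was at 39.3 and 23.6 RPKM, 39.6 and 26.0 FPKM, and 300 and 257 FPKM, with changes of -0.71, -0.59 and -0.22. By the listed values ATP5G1 was the higher of the ATP5G1 and ATP5G2 pair in all 3 vehicle libraries and the lower in all 3 treated libraries, as the plot of levels by library shows. The pair lay close in vehicle in the SR2211 experiment (160 and 157 RPKM) and the XY011 experiment (255 and 243 FPKM). Their order in those vehicle libraries is therefore uncertain. It is also uncertain in the ENZ experiment, whose table lists 4 pseudogenes of ATP5G1 and 3 of ATP5G2. The former summed to 78.2 FPKM in vehicle and 43.0 with ENZ, the latter to 170 and 168 FPKM.

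**Figure D2:**
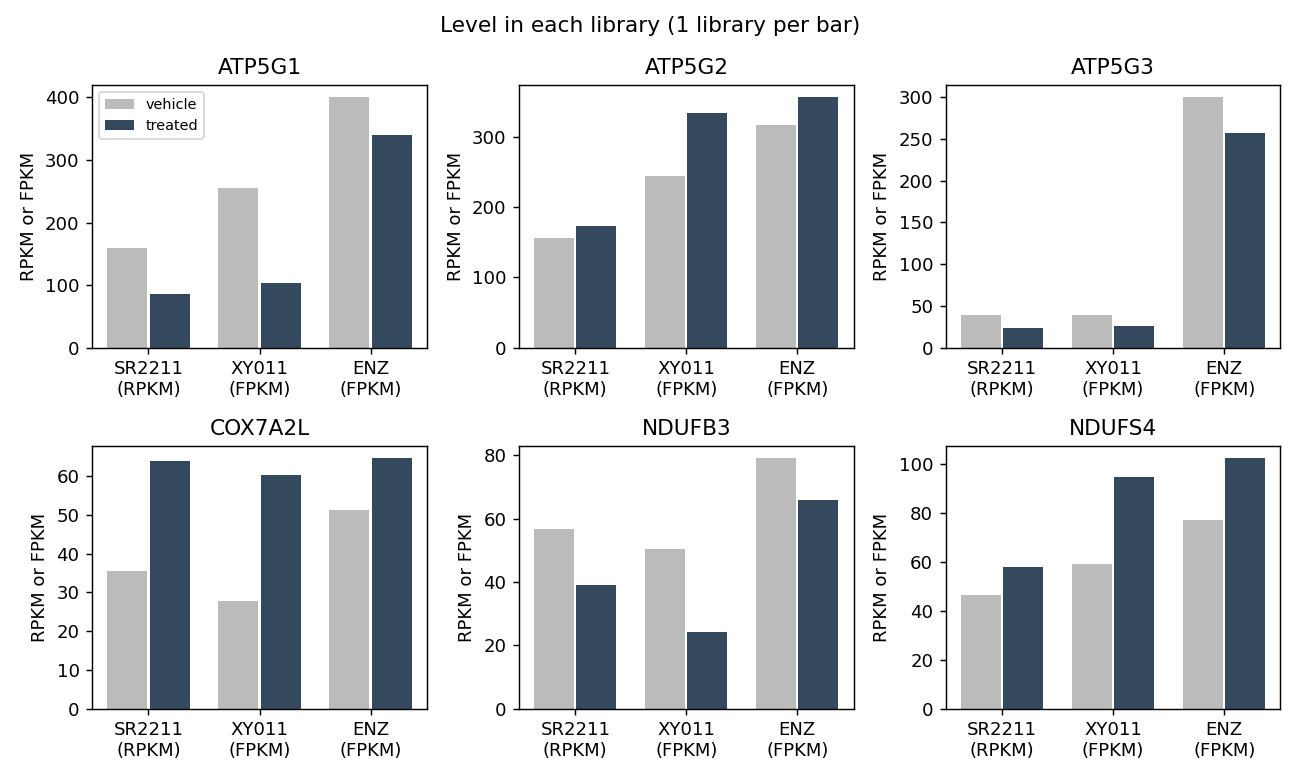
Deposited value of 6 genes in each of the 6 libraries, as bars from 0 (grey, vehicle; dark, treated; RPKM for SR2211, FPKM for XY011 and ENZ; 1 library a bar, so no error bar). ATP5G1 and ATP5G3 are lower and ATP5G2 higher in each treated library, COX7A2L and NDUFS4 are higher in each, and NDUFB3 is lower in each.

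The c subunit genes differ in their coding sequence even where their proteins are identical, over the last 77 residues. That stretch is printed from GENCODE transcripts to show how alike the 3 parent genes are, with capitals where the base differs from that of at least 1 of the other c subunit genes.
ATP5G1: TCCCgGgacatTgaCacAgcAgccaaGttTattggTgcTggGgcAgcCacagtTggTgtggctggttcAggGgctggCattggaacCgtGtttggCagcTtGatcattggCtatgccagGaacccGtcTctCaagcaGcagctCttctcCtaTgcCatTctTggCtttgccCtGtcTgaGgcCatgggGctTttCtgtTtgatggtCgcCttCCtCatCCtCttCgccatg
ATP5G2: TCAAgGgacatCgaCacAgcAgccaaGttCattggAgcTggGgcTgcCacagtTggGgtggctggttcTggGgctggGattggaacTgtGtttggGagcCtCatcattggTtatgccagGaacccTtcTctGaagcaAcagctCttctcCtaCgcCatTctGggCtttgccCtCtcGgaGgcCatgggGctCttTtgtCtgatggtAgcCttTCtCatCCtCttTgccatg
ATP5G3: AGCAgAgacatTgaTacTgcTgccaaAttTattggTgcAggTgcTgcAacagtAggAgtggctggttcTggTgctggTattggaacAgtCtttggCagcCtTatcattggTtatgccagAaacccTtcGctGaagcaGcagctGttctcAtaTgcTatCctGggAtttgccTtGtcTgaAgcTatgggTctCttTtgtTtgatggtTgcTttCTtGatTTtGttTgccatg
Of the 231 bases 57 differed. ATP5G1 and ATP5G2 shared 88.3% of these bases, ATP5G1 and ATP5G3 80.1%, and ATP5G2 and ATP5G3 80.1%. Over the whole annotated coding transcripts, not this stretch alone, the longest common runs of these pairs were 17, 11 and 20 bases. The authors' treatment of reads that map to several places was not stated in the labels, and sharing of reads with each other or with pseudogenes was not tested.

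The reads recovered behind the SR2211 values bounded the counting error of these ratios. They are the smallest whole numbers that fit, so the true reads may be multiples of them. The intervals would then be too wide. ATP5G1 had 869 reads in vehicle and 465 with SR2211, a ratio per mapped read of 0.538 (exact 95% interval 0.479 to 0.602). ATP5G3 had 1065 and 638 reads, a ratio of 0.602 (0.545 to 0.664). ATP5G2 had 1513 and 1670 reads, a ratio of 1.11 (1.03 to 1.19). Thus the intervals of ATP5G1 and ATP5G3 lay below 1 and that of ATP5G2 above 1. These intervals cover counting error only, since each library is a single sample and the reads carry no molecular identifiers.

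**Figure D3:**
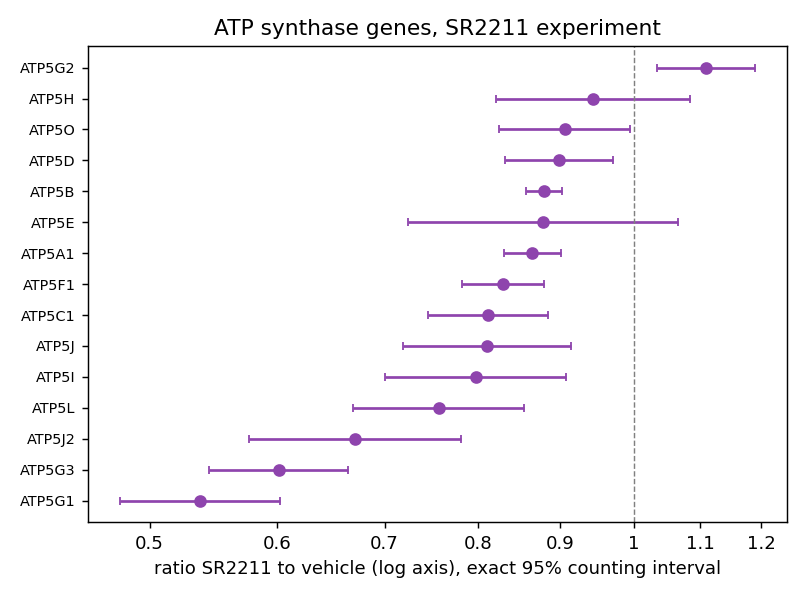
Ratio of SR2211 to vehicle in reads per mapped read for 15 ATP synthase genes (log axis), with exact 95% counting intervals from 1 library each. ATP5G1 and ATP5G3 lie lowest, at 0.538 and 0.602, ATP5G2 lies above 1 at 1.11, and the intervals of ATP5E and ATP5H hold 1.

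The genes of the F1 head of ATP synthase had smaller changes than ATP5G1 and ATP5G3. ATP5B encodes the catalytic beta subunit and had the highest value of all 95 genes in every library. It was at 839 and 739 RPKM in the SR2211 experiment, 828 and 626 FPKM in the XY011 experiment, and 2700 and 2468 FPKM in the ENZ experiment. ATP5A1, the alpha subunit, was at 269 and 233 RPKM and at 333 and 261 FPKM, and ATP5C1, the gamma subunit that forms the rotating shaft, at 249 and 202 RPKM and at 265 and 200 FPKM. The changes of these 3 genes lay between -0.18 and -0.30 with SR2211 and between -0.35 and -0.40 with XY011. ATP5O, which encodes the stator protein that confers sensitivity to oligomycin, changed by -0.14 with SR2211, -0.34 with XY011 and -0.25 with ENZ. Of the 15 ATP synthase genes with recovered reads, 12 had an interval below 1 with SR2211, 2 held 1 (ATP5E and ATP5H) and ATP5G2 lay above.

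ATP5J2, subunit f of the membrane part, was at 299 and 200 RPKM, a change of -0.57, with SR2211 and at 608 and 404 FPKM, a change of -0.59, with XY011. With ENZ it went from 803 to 1182 FPKM, a change of 0.56, the opposite direction. ATP5L2, a retrocopy of the subunit g gene, rested on low values. It was at 1.02 FPKM in the XY011 vehicle library and at that table's lowest value of 0.001 with XY011, and at 6.92 and 13.7 FPKM in the ENZ experiment.

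Complex I, with 37 genes, was the next lowest with SR2211 and XY011, and its medians were -0.20 with SR2211, -0.33 with XY011 and -0.07 with ENZ. Lower values than in vehicle were found in 27, 32 and 21 of the 37 genes, where 54.4%, 57.7% and 52.3% of all genes were lower. The ENZ share of 56.8% thus lay near that of all genes. Of the 37 genes, 26 were lower with both SR2211 and XY011, against 45.8% of all genes compared in both. Under centring the complex I medians were -0.13 with SR2211, -0.17 with XY011 and -0.05 with ENZ. Under quantile scaling they were -0.07, -0.17 and -0.0099, the ENZ value being near 0. The 7 conserved core genes, which carry the electron path, had medians of 0.03, -0.14 and -0.05. The 30 accessory genes had medians of -0.22, -0.34 and -0.09.

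Core genes of complex I went in both directions. NDUFV1, which binds NADH and the flavin cofactor, was at 82.9 and 92.7 RPKM in the SR2211 experiment and at 56.0 and 52.1 FPKM in the XY011 experiment. NDUFV2, an iron-sulfur protein of the same input module, was at 226 and 166 RPKM and at 218 and 143 FPKM, changes of -0.44 and -0.60. NDUFS1, the largest core iron-sulfur subunit, changed by 0.24 with SR2211 and -0.14 with XY011. The changes of NDUFS7 and NDUFS8, whose iron-sulfur clusters lie on the path to ubiquinone, ran from -0.07 to 0.23 over the 3 experiments. NDUFS3 was lower in all 3 treated libraries, with changes of -0.39, -0.52 and -0.43.

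Several accessory genes of complex I had their lowest changes with XY011. NDUFB3, which encodes a membrane-arm subunit, was at 56.9 and 39.1 RPKM in the SR2211 experiment, 50.5 and 24.2 FPKM in the XY011 experiment and 79.1 and 65.9 FPKM in the ENZ experiment. NDUFB6, another membrane-arm subunit, was at 32.4 and 23.2 RPKM, 22.8 and 10.2 FPKM, and 113 and 101 FPKM. Both were lower in all 3 treated libraries, NDUFB3 by changes of -0.53, -1.03 and -0.26 and NDUFB6 by -0.47, -1.09 and -0.15. NDUFAB1, the mitochondrial acyl carrier protein, changed by -0.42, -0.90 and -0.45, and NDUFA8 by -0.47, -0.90 and -0.32. NDUFV3, an accessory subunit of the input module, was at 31.2 and 19.6 RPKM with SR2211 (551 and 345 reads, ratio 0.629, exact interval 0.548 to 0.721) and at 51.2 and 46.3 FPKM with XY011.

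A few complex I genes were higher. NDUFS4, an accessory subunit of the input module whose loss causes Leigh syndrome, was at 46.7 and 57.8 RPKM, 59.4 and 94.9 FPKM, and 77.1 and 103 FPKM. It was higher in all 3 treated libraries, with changes of 0.30, 0.67 and 0.41. Its reads went from 259 to 319 with SR2211, a ratio of 1.24 (exact interval 1.05 to 1.46). NDUFA13, also known as GRIM-19, was at 114 and 156 RPKM and at 91.8 and 114 FPKM, changes of 0.45 and 0.31. NDUFB5 behaved unlike these, with 77.7 and 84.4 RPKM, 80.8 and 72.2 FPKM, and 202 and 117 FPKM with ENZ. Its change of -0.78 was the lowest of the structural genes with ENZ, and its change of -0.16 with XY011 turned to 0.0061 under centring and 0.0176 under quantile scaling.

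Complex II, succinate dehydrogenase, had small changes. SDHA, the flavoprotein that oxidises succinate, was at 51.6 and 50.4 RPKM, 67.9 and 69.5 FPKM, and 116 and 114 FPKM. SDHB, its iron-sulfur partner, was at 79.3 and 80.0 RPKM, 94.5 and 93.4 FPKM, and 117 and 103 FPKM. The changes of the membrane anchor genes SDHC and SDHD ran from -0.20 to 0.14. The median of the 4 genes was -0.06 with SR2211, which turned to 0.02 under centring and 0.09 under quantile scaling, 0.01 with XY011 and -0.07 with ENZ. With SR2211 the counting interval held 1 for 3 of the 4 genes, and SDHD was at 0.872 (0.799 to 0.953).

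Complex III, which passes electrons from ubiquinol to cytochrome c, had medians of -0.12 with SR2211, -0.23 with XY011 and -0.10 with ENZ. The SR2211 value turned to 0.02 under quantile scaling. UQCRFS1, the Rieske iron-sulfur protein, was at 206 and 150 RPKM and at 246 and 184 FPKM, changes of -0.46 and -0.42, and at 110 and 103 FPKM with ENZ. UQCRC1, a core protein, changed by -0.14, -0.23 and -0.10, while UQCRC2, the other core protein, was at 159 and 169 RPKM, 201 and 201 FPKM, and 256 and 213 FPKM. All 8 genes had lower values with XY011, 5 of 8 with SR2211 and 7 of 8 with ENZ. Among all genes compared, the shares in that order were 57.7%, 54.4% and 52.3%.

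Complex IV, cytochrome c oxidase, was the only complex with a median above 0 in more than 1 experiment, at 0.02 with SR2211 and 0.06 with ENZ. Its median with XY011 was -0.09, which turned to 0.08 under centring, 0.03 under quantile scaling and 0.0033 at a minimum value of 5. Of the 13 genes compared with both SR2211 and XY011, 6 were lower in both and 6 higher in both (45.8% and 33.6% of all genes). The general isoform genes COX4I1, COX5A and COX5B had changes from -0.19 to 0.34 over the 3 experiments. The summed value of complex IV was 0.983 times vehicle with SR2211, 0.993 with XY011 and 0.988 with ENZ.

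COX7A2L (Entrez 9167) had the highest change of all respiratory chain genes with SR2211 and with XY011. It encodes a relative of COX7A, also called SCAF1, that joins complexes III and IV in supercomplexes. It was at 35.6 and 64.0 RPKM in the SR2211 experiment, 27.7 and 60.4 FPKM in the XY011 experiment, and 51.4 and 64.7 FPKM in the ENZ experiment. It was higher in all 3 treated libraries, with changes of 0.83, 1.10 and 0.33. With SR2211 it had 334 and 598 reads, a ratio of 1.80 (exact interval 1.57 to 2.06). The general COX7A gene, COX7A2, was at 111 and 119 RPKM, 131 and 163 FPKM, and 502 and 529 FPKM.

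Tissue and condition isoforms stood at low values. COX7B2, known from testis, was at 2.37 and 1.73 RPKM, at 4.19 and 0.97 FPKM with XY011, and at 3.62 and 5.30 FPKM with ENZ. With SR2211 this rested on 11 and 8 reads, and the interval of the ratio (0.255 to 1.99) held 1. NDUFA4L2, a hypoxia-induced relative of NDUFA4, was at 3.06 and 4.71 RPKM and at 8.01 and 14.1 FPKM with ENZ. COX6B2, another testis isoform, was at 4.88 and 4.40 FPKM in the XY011 experiment, and COX7A1, the muscle isoform, was at 0.199 and 0.572 FPKM in the ENZ experiment. COX4I2, COX6A2 and COX8C were not analysed here.

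The change shared by SR2211 and XY011 was tested with limma on the 4 libraries of those experiments, with the experiment as a covariate and Benjamini-Hochberg adjustment over all 12063 genes. This test has 1 residual degree of freedom, and it treats the compounds as replicates of a class. Of 91 respiratory chain genes 3 fell and 1 rose at an adjusted p under 0.05, where 13.3% of all genes fell and 8.94% rose. In limma, ATP5G1 fell by 1.09 (SE 0.21, adjusted p = 0.0197), the assembly factor gene NDUFAF4 by 0.75 (SE 0.19, adjusted p = 0.0396) and NDUFB3 by 0.78 (SE 0.22, adjusted p = 0.0490). COX7A2L rose by 0.96 (SE 0.20, adjusted p = 0.0241) in limma. At an unadjusted p under 0.05, 14 were below 0 and 1 above 0 (23.6% and 15.8% of all genes). ATP5G3 (-0.65, limma adjusted p = 0.0597), NDUFB6 (-0.78, 0.0567), NDUFS4 (0.48, 0.137) and ATP5G2 (0.30, 0.310) did not pass.

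With a pseudocount of 0.1 in place of 1, limma called none of the 12063 genes, and its 4 calls ended here, with adjusted p = 0.0731 for ATP5G1, 0.0767 for COX7A2L, 0.0850 for NDUFAF4 and 0.112 for NDUFB3. Quantile scaling ended the limma calls of NDUFAF4 (adjusted p = 0.0644) and NDUFB3 (0.0987), and dropping the filter on low values that of NDUFB3 (0.0597).

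Gene by gene, the changes with SR2211 and XY011 went together. Across the 88 genes compared in both, Pearson's r was 0.78 and Spearman's rho 0.81, as a description across genes, which are not independent replicates. The experiments shared the cell line but no library. Both treated values were lower in 58 of the 88 genes (65.9%, against 45.8% of 11633 genes), both higher in 13 (14.8%, against 33.6%), and 17 went in opposite directions (19.3%, against 20.6%). None was called in both experiments at the size rule of 1, where 4.58% of all genes were lower in both and 3.25% higher in both. At a change of 0.58 or more, 3 genes were lower in both (ATP5G1, ATP5G3 and NDUFAF4; 13.9% of all genes) and COX7A2L was higher in both (9.43% of all genes). NDUFAF4 was at 12.1 and 6.86 RPKM and at 13.1 and 7.26 FPKM. The median size of a change among the respiratory chain genes was 0.21 with SR2211, 0.33 with XY011 and 0.13 with ENZ. The SR2211 and XY011 vehicle libraries differed from each other by a median of 0.34 in size over 92 genes, and by 1 or more in 13 of them (14.1%). Over 12500 genes the median was 0.31 and the share 11.0%.

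**Figure D4:**
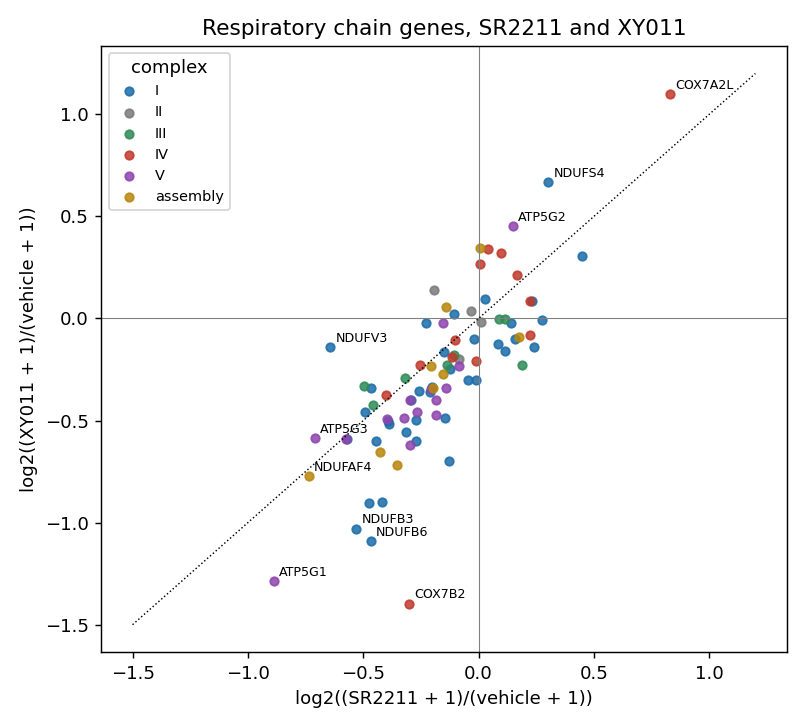
Change with SR2211 (x axis) against change with XY011 (y axis), both as log2((treated + 1)/(vehicle + 1)), for genes of complexes I to V and the assembly factors; the dotted line marks equal changes. COX7A2L is at the upper right (0.83, 1.10) and ATP5G1 at the lower left (-0.89, -1.29), and COX7B2 lies far below the line (-0.30, -1.40).

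The assembly factors among the respiratory chain genes had medians of -0.20, -0.27 and -0.04, and 7 of 9 were lower in each experiment. Among all genes compared, 54.4% had a lower value with SR2211, 57.7% with XY011 and 52.3% with ENZ. From a list of 38 further assembly factors outside the prefixes, 37 were compared in each experiment. With SR2211 1 was lower by the size rule, with XY011 4 and with ENZ 2, and none was higher. Of all genes compared, 5.75%, 13.2% and 4.66% were lower and 5.1%, 7.59% and 3.68% higher. The medians of the 37 were -0.26, -0.53 and -0.14. TMEM70, which helps to assemble ATP synthase, was lower with both compounds, at 15.8 and 7.22 RPKM and at 12.9 and 3.95 FPKM, and was at 68.0 and 59.5 FPKM with ENZ. FOXRED1, a complex I assembly factor, was at 33.7 and 10.3 FPKM with XY011. ATP5S and ATP5SL carry the prefix but are not subunits of the enzyme. ATP5S was at 4.50 and 5.24 RPKM, 4.72 and 4.38 FPKM, and 14.8 and 21.6 FPKM with ENZ. ATP5SL was at 9.51 and 9.56 RPKM, 12.5 and 19.1 FPKM with XY011, and 21.1 and 28.3 FPKM with ENZ.

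Subunits and carriers outside the prefixes were CYC1, CYCS, USMG5, C14orf2 and ATPIF1. Of these, 5 of 5 were lower with SR2211 and with XY011 and 4 of 5 with ENZ, none by the size rule. Lower values were found in 54.4%, 57.7% and 52.3% of all genes compared with SR2211, XY011 and ENZ. CYCS, cytochrome c, was at 93.1 and 51.5 RPKM, 74.7 and 42.2 FPKM, and 342 and 243 FPKM. ATPIF1, the inhibitor of ATP hydrolysis by ATP synthase, was at 114 and 80.2 RPKM, 166 and 90.5 FPKM, and 297 and 300 FPKM. Of 16 regulators and genes of mitochondrial DNA maintenance, none passed the size rule with SR2211 or ENZ. With XY011 2 of the 15 compared, TFAM and SSBP1, were lower, where 13.2% of all genes were lower. TFAM, which packages and transcribes mitochondrial DNA, was at 21.1 and 10.9 RPKM, 16.8 and 5.81 FPKM, and 39.0 and 27.0 FPKM. SSBP1, the mitochondrial single-strand DNA binding protein, was at 103 and 83.1 RPKM, 169 and 55.4 FPKM, and 178 and 153 FPKM. NRF1, a transcription factor of respiratory genes, was at 5.86 and 7.13 RPKM, 5.40 and 7.01 FPKM, and 6.04 and 4.07 FPKM.

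The mitochondrial DNA-encoded subunits were analysed in the ENZ experiment alone. All 13 had a higher value with ENZ, where 9183 of all 19253 genes compared did. Their median change was 0.62, while the median of the nuclear genes was -0.07. FPKM is scaled to library size, so a rise of abundant genes lowers the values of others. Its part in this contrast was not tested. MT-ND6 had the highest change, from 1576 to 3446 FPKM (1.13). It was the 1 gene of the 13 past the size rule, where 3.68% of all genes were called higher. MT-ND2 had the lowest, from 2523 to 2684 FPKM (0.09). Their summed value went from 76353 to 116463 FPKM, which was larger than the sum of the nuclear genes, at 27707 and 27132 FPKM.

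**Figure D5:**
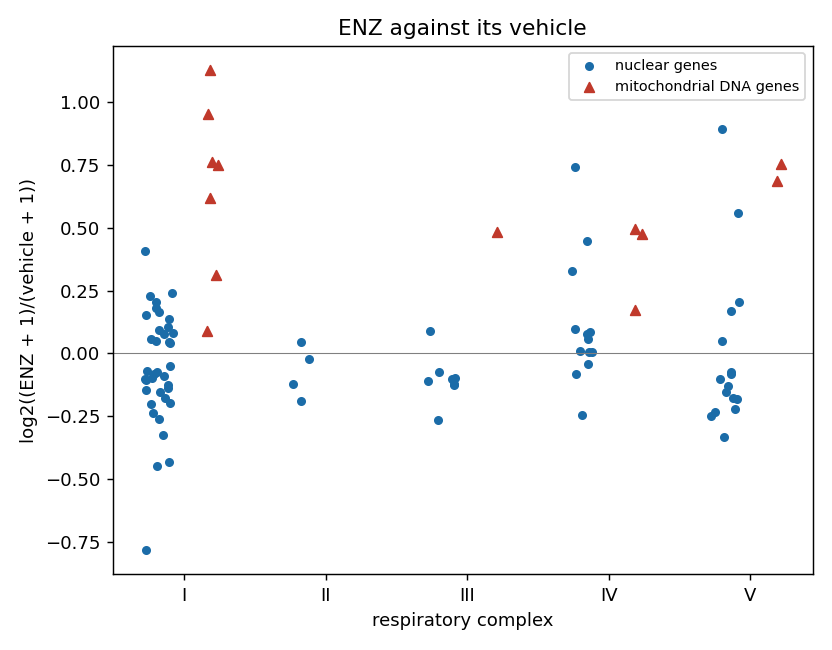
Change with ENZ, log2((ENZ + 1)/(vehicle + 1)), of nuclear genes (circles) and mitochondrial DNA genes (triangles) of each complex, from 1 vehicle and 1 ENZ library. All 13 triangles lie above 0 (0.09 to 1.13), and the nuclear genes lie on both sides of 0 with a median of -0.07.

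Values of the ENZ experiment carry a further limit, because its table lists pseudogenes beside their parents. It held 66 pseudogenes with these prefixes, not all of which were matched to a parent. For 25 of the 34 matched parents, the summed vehicle value of the pseudogenes was 10% or more of the parent's. The sums were 232% of the parent for NDUFA5, 182% for ATP5E, 114% for COX7C and 112% for ATP5A1, and 10.1% to 92.1% for the other 21, among them UQCRFS1, COX7A2, SDHA and NDUFV2, so reads could be split between copies there, and these levels are uncertain. NDUFB8 stood on 2 lines of that table, at 90.5 and 22.5 FPKM in vehicle and 97.4 and 18.9 FPKM with ENZ, and was summed. NDUFC2-KCTD14 was at 2.46 FPKM in vehicle and at 2.63e-25 FPKM with ENZ, as listed, while NDUFC2 itself was at 229 and 237 FPKM.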

How the data were processed

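RNA was poly(A)-selected and made into TruSeq libraries, per the labels' protocols, and the ENZ libraries were read from both ends, per the labels. The authors deposited RPKM values in the SR2211 experiment and FPKM values in the XY011 and ENZ experiments. Tools named are Cufflinks, Cuffdiff, Bowtie and BWA, with hg19 and GRCh37 as builds, per the submitters' processing notes. The tool behind each table, the versions, the annotation, strand use and the handling of reads with several matches were not given in the sources used here. Overlapping and antisense genes therefore cannot be told apart. Groups were taken from the sample titles, since the extraction protocols name other compounds for some libraries. Whether the libraries came from separate cultures is not given.

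Stand-in values of 0.01 (SR2211 experiment) and 0.001 (XY011 experiment) mark genes without reads. Small RNA genes were left out of the comparisons, and lines with the same symbol were summed. Changes used a pseudocount of 1 and a minimum of 1 in either library. The shared change of SR2211 and XY011 was tested with limma 3.58.1 (R 4.3.3), checked on simulated data. Reads of the SR2211 experiment were recovered for 90 of 93 genes from the depth and whole gene lengths, as the smallest whole reads that fit. Multiples of them cannot be told apart, so the read numbers are lower limits. Exact 95% binomial intervals were taken from these reads. The recovered vehicle reads ran from 5 to 12783 with a median of 583. Python 3.11.15, pandas 2.3.3 and scipy 1.17.1 did the rest. Sequences came from RefSeq and GENCODE, of a build other than the files', so no other coordinates are given.

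Genes are named by this rule: the 4 highest and 4 lowest changes of each experiment, every gene past the size rule, core subunits, c subunit genes, isoforms, and listed pathway genes past the size rule with both SR2211 and XY011. NDUFA8, COX7A2, CYCS, ATPIF1, FOXRED1, TFAM, SSBP1, NRF1, ATP5E, ATP5H, MT-ND2 and MT-ND6 fall outside it and were chosen after their values were seen. Genes named only as list members or for limits of the data fall outside it too. The genes and lists were chosen with earlier results of these data known. Alternatives were other pseudocounts (0.1 and 5), filters, scalings, a size rule of 0.58, structural subunits alone, and for limma a variance trend and 6 libraries. The values of 1 core gene are not reported here.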

Additional observations from a re-analysis of the deposited data

Results flagged for a closer look

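ATP5J2, subunit f of ATP synthase, moved in opposite directions. Its change was -0.57 with SR2211 and -0.59 with XY011 and 0.56 with ENZ, with 1 pair of libraries behind each value. ATP5L2, a retrocopy of the subunit g gene, had a change of -1.01 with XY011 and 0.89 with ENZ, on values between 0.001 and 13.7 FPKM. These differences between experiments were not tested, since no group had a replicate, and the ENZ dose was not that of SR2211 and XY011.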

How the results depend on the processing

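With a pseudocount of 5 the count of respiratory chain genes called lower was 1 with XY011 and 0 with ENZ. With a minimum value of 5 it was 3 and 0. With XY011 it was 3 when the pair was centred, which subtracts the median of -0.17 from every change. It was 2 under quantile scaling, which moved the median gene up by 0.13. The share of all genes called at these settings is not given here, so these counts have no background beside them. The median change with XY011 was -0.079 when centred and -0.114 under quantile scaling. Under quantile scaling the SR2211 median was -0.042, that of complex III with SR2211 was 0.0227, and the XY011 change of NDUFB5 was 0.0176 (0.0061 when centred). At a size rule of 0.58, 1 gene was higher and 4 were lower with SR2211 (14% and 17.5% of all genes). The counts were 2 and 17 with XY011 (17.1% and 28.1%), and 2 and 2 with ENZ (11.8% and 12.6%). In limma, the count of respiratory chain genes that fell was 0 at a pseudocount of 0.1 (0% of all genes), 10 of 91 at 5 (15.5%), 5 of 85 at a mean of 5 or more (16.8%), 2 of 92 without the filter (9.08%), 1 of 91 under quantile scaling (7.67%) and 15 of 91 with a variance trend (17.9%). The count that rose was 0 at 0.1 (0% of all genes) and 2 with the trend (11.6%). Why these counts differ was not tested, except that the stricter filter compares fewer genes. Depth is unknown for the XY011 and ENZ libraries, so small changes there have no counting limit.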
